A study of Mus musculus with 6 samples.

Results

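Of the 23358 gene rows in the deposited table, 33 make up a module of the endoplasmic reticulum (ER). It holds the chaperones, folding enzymes, degradation factors and translocon subunits through which secreted and membrane proteins pass, with the sensors that watch over them. The genes were chosen by name, with earlier results of these data known. Each of the 33 was in the table and passed the filter on low counts. RNA came from confluent MC3T3-E1 cells, a pre-osteoblast line derived from C57BL/6 mouse calvaria. Treated cultures were given 1 µM NU7441, a small molecule that blocks DNA-PK, and the control cultures DMSO, each for 16 h, and every sample is of this same line. Each group has 3 sequenced samples. Material of 3 independent experiments, each in triplicate, was pooled before sequencing, per the series' design text. How the pools map to the sequenced samples is not stated, and the p-values cover only the spread between those samples, which may be technical.

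Proteins made for secretion enter the ER through the SEC61 channel, fold there with the help of the HSP70 protein BiP and its partners, and receive disulfide bonds from protein disulfide isomerases. Glycoproteins cycle through the lectin chaperones calnexin and calreticulin, and chains that fail to fold are sent back to the cytosol for degradation. When unfolded chains build up, the sensors IRE1, ATF6 and PERK start the unfolded protein response, which raises transcription of many of these genes. Osteoblasts depend on this machinery because they secrete large amounts of type I collagen.

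In NU7441 most of the chaperone and folding genes were lower, while the sensors were not called. Of the 33 genes, 20 fell and 0 rose at an adjusted p of 0.05 (edgeR's quasi-likelihood test, Benjamini-Hochberg adjustment over the 13784 genes tested). Over all tested genes 30.7% were called, 16.6% lower and 14.1% higher. This balance moved with the scaling, since 45.9% of all calls were higher with TMM, 56.5% with upper-quartile scaling and 37.7% with library size only. At an unadjusted p under 0.05, 2 of the 33 were higher. DESeq2 also called 0 higher. The falls were small, with log2 fold changes of the called genes between -0.46 for Calr and -0.078 for Ssr3. The median over the 33 genes was -0.14, beside 0.0052 over all genes tested. Every NU7441 sample lay below every DMSO sample for 22 of the 33, which held for 22.2% of all tested genes, and above every DMSO sample for 1, Sel1l, which held for 20.6%. A log2 fold change below -0.2 was found for 14 of the 33 and for 15.8% of all tested genes. Since the 33 were chosen with earlier results of these data known, these shares describe the set and do not test it.

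By role, the HSP70 and HSP90 chaperones and their partners had 7 of 9 genes lower, both lectin chaperones fell, and 5 of 6 disulfide enzymes fell. Among the translocon genes 5 of 6 fell. Of 5 degradation genes 1 fell, and neither the 2 prolyl isomerases nor the 3 sensors and transcription factors passed the test. Together the 33 genes took 0.809% ± 0.013 of all gene counts in NU7441 and 0.951% ± 0.0093 in DMSO (SD, n = 3 each). The 3 NU7441 shares were 0.794%, 0.820% and 0.814% and the 3 DMSO shares 0.941%, 0.952% and 0.960%, so that the groups did not overlap. The lectin chaperones took 0.130% ± 0.0047 of all gene counts in NU7441 and 0.168% ± 0.003 in DMSO. For the sensors and transcription factors the shares were 0.0185% ± 0.00045 of all gene counts in NU7441 and 0.0184% ± 0.00022 in DMSO. In RNA from whole cultures, fewer cells of a kind and less RNA per cell cannot be told apart.

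**Figure D1:**
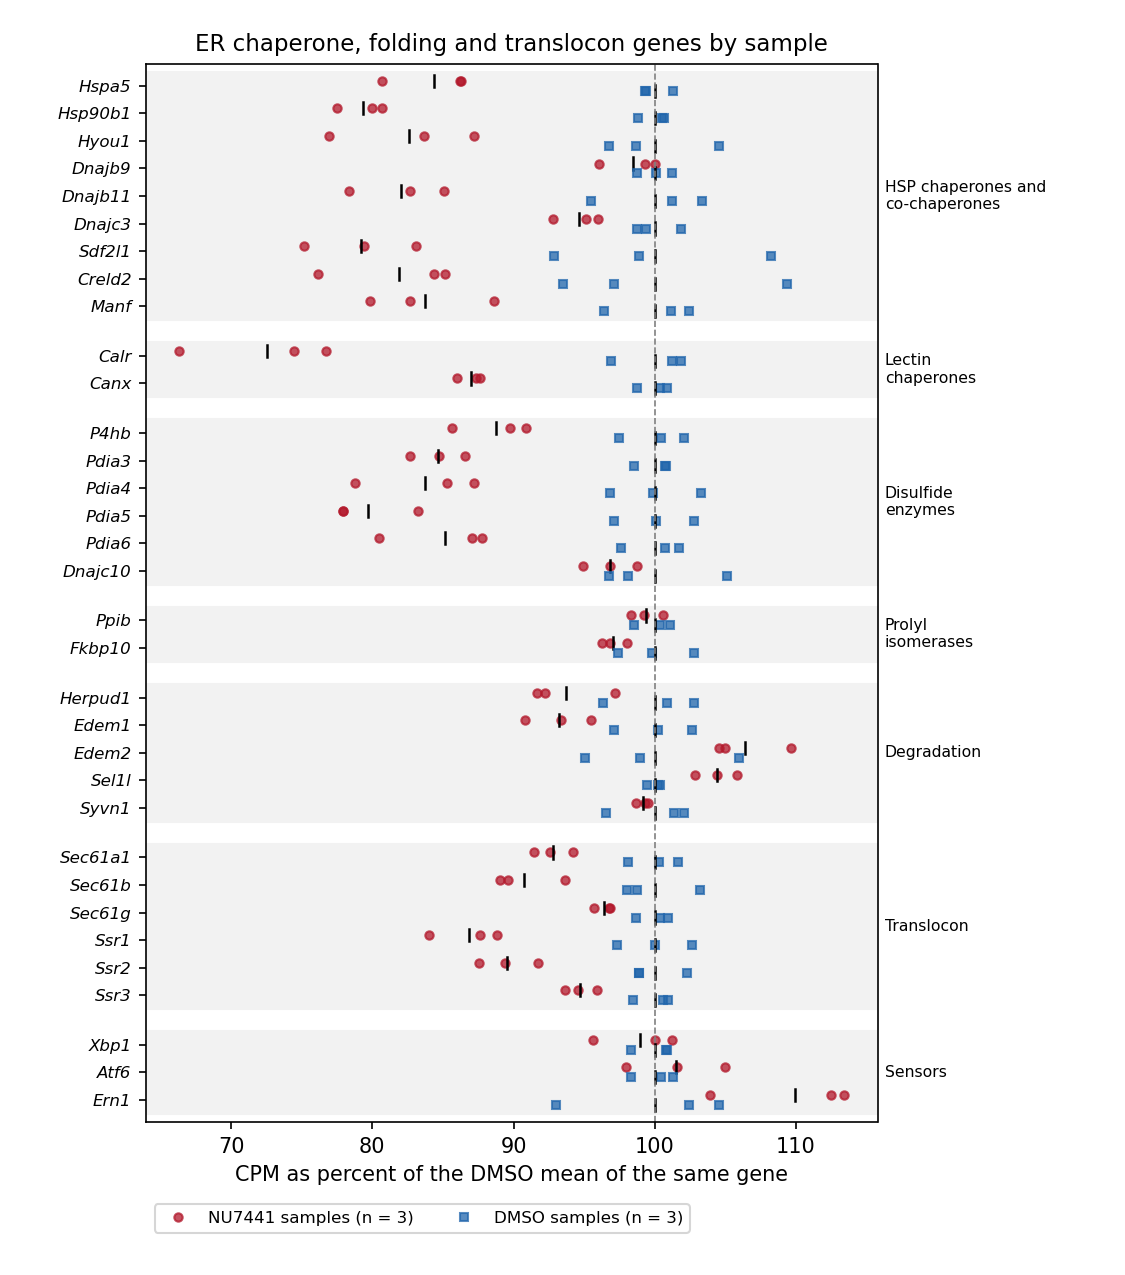
Normalised counts (CPM) of each of the 33 genes in every sample, as a percent of that gene's DMSO mean on the x axis, with genes by role on the y axis. Red circles are NU7441 samples, blue squares DMSO samples and black ticks group means. The NU7441 circles of Calr, Hsp90b1 and Pdia5 lie well left of the DMSO squares, whereas those of Ppib, Syvn1 and Xbp1 lie among them.

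Gene counts totalled 52150994 to 55021692 in the NU7441 samples and 47312968 to 71292628 in the DMSO samples, so that depth differed most within DMSO. The 33 genes had from 438 counts (Dnajb9) to 99282 counts (P4hb) in a sample, and the median spread between samples of a group was 2.77% of the mean in NU7441 and 2.68% in DMSO. Of 10 osteoblast markers 8 were tested, with 3 higher and 2 lower (1 higher and 0 lower with a robust fit), and the list's summed level was 48518 to 50000.2 CPM in NU7441 and 47042 to 49485 CPM in DMSO. Most of that sum came from the matrix genes Col1a1, Col1a2 and Sparc. The secreted matrix protein Ibsp averaged 7.09 ± 1.94 CPM in NU7441 and 13.1 ± 1.80 CPM in DMSO (-0.89 ± 0.15, adjusted p = 0.000414, edgeR) and Alpl, alkaline phosphatase, 32.7 ± 2.73 CPM in NU7441 and 39.9 ± 4.68 CPM in DMSO (-0.29 ± 0.07, adjusted p = 0.00597, edgeR), and both missed the threshold with the robust fit (0.0589 for Ibsp and 0.095 for Alpl). Spp1, osteopontin, averaged 1632 ± 60.5 CPM in NU7441 and 1377 ± 28.7 CPM in DMSO (0.25 ± 0.03, adjusted p = 5.16e-06, edgeR). Their part in the results of the 33 genes was not tested. Bglap and Bglap2, which encode osteocalcin, the marker of mature osteoblasts, had 2 to 12 counts per sample. A list of 7 macrophage markers summed to 6.82 to 7.57 CPM in NU7441 and 7.56 to 7.75 CPM in DMSO. Lists of 5 endothelial and 5 adipocyte markers summed to at most 1.03 CPM in a NU7441 sample and 0.716 CPM in a DMSO sample, and Ptprc, Emr1 and Kdr, which mark leukocytes, macrophages and endothelium, were at 0 in every sample.

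Several promoters of the 33 genes carry a common element, in full in 6 genes that fell and 2 that were not called. Whether the element plays a part in the falls was not tested. The ER stress element (ERSE) is a CCAAT box, 9 bases of any kind and CCACG, known to be bound by NF-Y together with ATF6. Promoter windows of RefSeq on GRCm38.p6, from 250 bases before to 50 bases after an annotated start, were found for 27 of the 33 genes. Searched on both strands, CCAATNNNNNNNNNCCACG occurred in 8 of these 27 windows (29.6%) and in 39 of 32851 windows of that length (0.119%). The 33 genes were chosen by name, with earlier results of these data known, and this contrast uses no expression values. It therefore describes the chosen genes and not the response to NU7441. The full element was found once in Hspa5, Calr, Canx, Creld2, Dnajc3, Pdia6 and Syvn1, and at 2 places in Hsp90b1. The elements are given below from 5′ to 3′ along the gene, with 20 bases on either side. Capitals mark the element, which starts with CGTGG where it runs against the gene.
Hspa5 (chr2:34772005-34772063, plus strand): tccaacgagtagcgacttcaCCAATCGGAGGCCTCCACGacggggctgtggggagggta
Hsp90b1 (chr10:86705618-86705676, minus strand): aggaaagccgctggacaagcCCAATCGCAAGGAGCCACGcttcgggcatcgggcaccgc
Hsp90b1 (chr10:86705513-86705571, minus strand): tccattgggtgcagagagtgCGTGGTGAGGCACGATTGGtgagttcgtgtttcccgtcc
Calr (chr8:84847055-84847113, minus strand): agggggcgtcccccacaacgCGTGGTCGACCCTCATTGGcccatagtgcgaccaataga
Canx (chr11:50325780-50325838, minus strand): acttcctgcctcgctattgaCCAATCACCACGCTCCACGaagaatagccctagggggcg
Creld2 (chr15:88819500-88819558, plus strand): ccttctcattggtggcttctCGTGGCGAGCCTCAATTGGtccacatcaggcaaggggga
Pdia6 (chr12:17266471-17266529, plus strand): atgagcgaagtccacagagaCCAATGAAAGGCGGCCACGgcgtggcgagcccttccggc
Dnajc3 (chr14:118937807-118937865, plus strand): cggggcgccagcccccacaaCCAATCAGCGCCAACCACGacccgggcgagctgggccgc
Syvn1 (chr19:6046512-6046570, plus strand): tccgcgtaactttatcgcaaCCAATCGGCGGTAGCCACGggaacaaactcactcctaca

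Measured from the start site, the element of Hspa5 spans positions -65 to -47, that of Calr -162 to -144 and those of Hsp90b1 -212 to -194 and -107 to -89. For Calr, which fell most, and Hsp90b1, which holds 2 copies, all 250 bases before the start are printed, with the elements in capitals.
Calr (chr8:84846932-84847181, minus strand): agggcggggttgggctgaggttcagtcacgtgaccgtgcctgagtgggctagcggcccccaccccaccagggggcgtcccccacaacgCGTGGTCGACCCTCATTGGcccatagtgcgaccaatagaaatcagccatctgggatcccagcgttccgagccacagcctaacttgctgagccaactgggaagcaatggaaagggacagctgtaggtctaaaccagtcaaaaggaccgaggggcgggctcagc
Hsp90b1 (chr10:86705445-86705694, minus strand): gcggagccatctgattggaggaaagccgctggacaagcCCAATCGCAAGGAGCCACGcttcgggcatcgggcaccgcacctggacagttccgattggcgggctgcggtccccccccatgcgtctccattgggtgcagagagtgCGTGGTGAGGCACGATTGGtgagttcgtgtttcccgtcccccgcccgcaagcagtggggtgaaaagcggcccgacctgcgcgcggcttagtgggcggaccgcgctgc

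With the last base of the element left free, which was tried after the windows had been seen, Pdia3, Pdia4 and Herpud1 had a match too, making 11 of 27 windows (40.7%), beside 0.365% of all windows. Pdia3 and Pdia4 were picked for printing because both fell, and the stretch of Pdia3 ends at its start site. Herpud1, whose match spans positions -18 to -1, was not called (log2 fold change -0.095) and is not printed. The printed pair therefore does not show whether such a match goes with a fall.
Pdia3 (chr2:121413853-121413901, plus strand): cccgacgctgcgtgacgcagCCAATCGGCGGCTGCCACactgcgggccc
Pdia4 (chr6:47813582-47813639, minus strand): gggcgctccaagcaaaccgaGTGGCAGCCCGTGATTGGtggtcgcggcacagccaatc
The related element ERSE-II, ATTGGNCCACG, occurred in the windows of Dnajb11 and Herpud1, 2 of 27 (7.41%), beside 0.0365% of all windows. Of the 8 genes with a full ERSE 6 fell and 0 rose (median log2 fold change -0.24), and Dnajc3 and Syvn1 were not called. Of the 19 genes whose window lacks it 10 fell and 0 rose, with a median of -0.095. Outside the 33, 7 tested genes have the full element, and 1 of them fell, 1 rose and 5 were not called (median 0.068). No difference between these sets was tested.

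**Figure D2:**
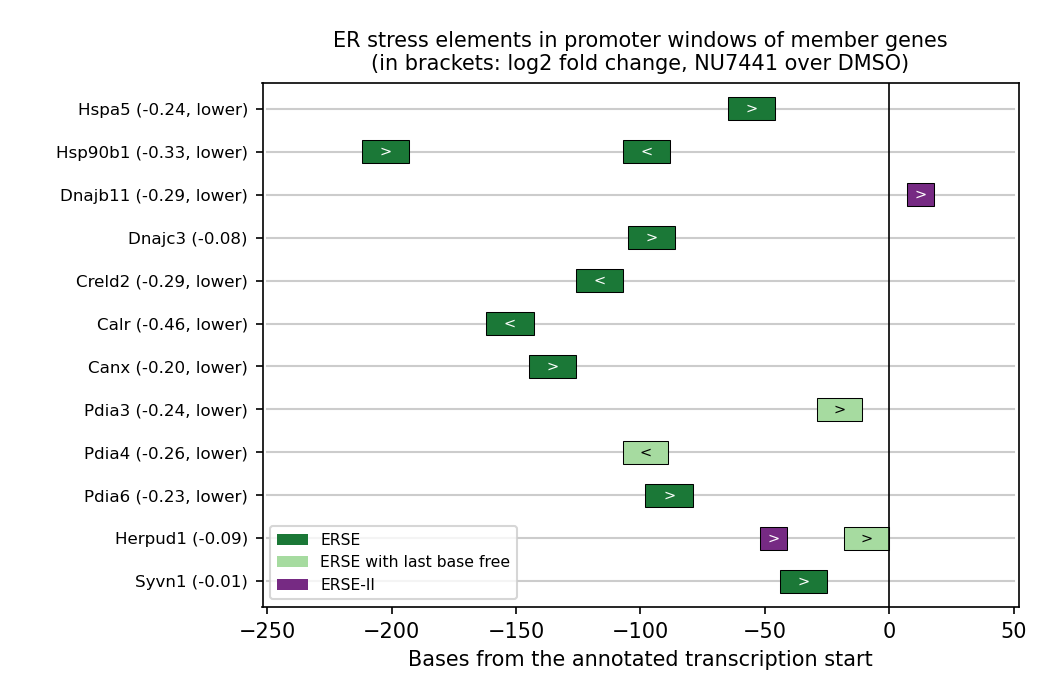
Positions of ER stress elements in the promoter windows of 12 of the 33 genes, in bases from the annotated start on the x axis, with 1 gene per row. Dark green boxes are full ERSE matches, light green boxes matches with the last base left free and purple boxes ERSE-II, and the arrow in a box gives its direction along (>) or against (<) the gene. Brackets give the log2 fold change, and 9 of the 12 genes are marked lower, beside 20 of all 33 and 16.6% of all tested genes. The light green matches were tried after the windows had been seen. Whether an element goes with a fall was not tested.

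Of the 9 genes in the class of HSP70 and HSP90 chaperones and co-chaperones 7 fell, BiP among them, beside 16.6% lower over all tested genes. Hspa5 encodes BiP, the HSP70 chaperone of the ER lumen (mm10 chromosome 2, 34772090 to 34776529), and stood at 680.2, 726 and 727 CPM in the NU7441 samples, against 837, 838 and 854 CPM in the DMSO samples. The groups did not overlap, and the NU7441 mean was lower by 15.6%, a log2 fold change of -0.24 ± 0.03 (SE; adjusted p = 1.34e-05, edgeR). For Hsp90b1, which encodes GRP94, the HSP90 chaperone of the ER (mm10 chromosome 10, 86690841 to 86705444), the values were 943, 982 and 973 CPM in the NU7441 samples, against 1226, 1223 and 1203 CPM in the DMSO samples. All NU7441 samples were again below all DMSO samples, with a log2 fold change of -0.33 ± 0.02 (adjusted p = 4.38e-08, edgeR), the lowest p of the 33 genes. Within a sample the RPKM of Hsp90b1 was 1.31, 1.28 and 1.27 times that of Hspa5 in the NU7441 samples, against 1.39, 1.39 and 1.34 in the DMSO samples. This ratio did not overlap between the groups (exact permutation test, two-sided p = 0.1, the smallest that 3 against 3 samples allow).

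Hyou1, the large HSP70 relative that exchanges nucleotide on BiP, had 85.7, 93.2 and 97.2 CPM in the NU7441 samples, against 108, 109.9 and 117 CPM in the DMSO samples. Its groups were apart, at -0.28 ± 0.04 on the log2 scale (adjusted p = 0.000248, edgeR). Dnajb11, the J-domain co-chaperone ERdj3 that hands unfolded chains to BiP, had 49.99, 52.8 and 54.3 CPM in the NU7441 samples, against 60.95, 64.6 and 65.95 CPM in the DMSO samples and a log2 fold change of -0.29 ± 0.04 (adjusted p = 9.57e-05, edgeR). Sdf2l1 forms a complex with Dnajb11, and it had 8.94, 9.45 and 9.88 CPM in the NU7441 samples, against 11.05, 11.8 and 12.9 CPM in the DMSO samples. All NU7441 samples were below all DMSO samples, and it fell by 0.34 on the log2 scale (SE 0.08, adjusted p = 0.00336, edgeR).

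Creld2 and Manf, small ER proteins known to be induced by ER stress, fell to a like degree. Creld2 averaged 25.1 ± 1.53 CPM in NU7441 and 30.7 ± 2.55 CPM in DMSO (log2 fold change -0.29 ± 0.06, adjusted p = 0.00168, edgeR), and among its DMSO samples replicate 2 was the highest at 33.6 CPM. Manf, which binds BiP, averaged 48.8 ± 2.62 CPM in NU7441 and 58.3 ± 1.85 CPM in DMSO (-0.26 ± 0.04, adjusted p = 0.000313, edgeR). The remaining J-domain co-chaperones of this class were not called. Dnajb9, or ERdj4, which represses IRE1 through BiP, stood at 8.86, 9.22 and 9.16 CPM in the NU7441 samples, against 9.10, 9.23 and 9.33 CPM in the DMSO samples. Its groups overlapped, and the 95% interval of its log2 fold change ran from -0.17 to 0.13 (adjusted p = 0.847, edgeR). Dnajc3, which binds unfolded chains in the lumen, had 97.5, 101 and 99.98 CPM in the NU7441 samples, against 104, 104 and 107 CPM in the DMSO samples, without overlap but with a log2 fold change of only -0.080 ± 0.03 (adjusted p = 0.0683, edgeR). Dnajc3 passed as lower with library size only (0.0279).

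Calr, which encodes calreticulin, the soluble calcium-binding lectin chaperone of the ER (mm10 chromosome 8, 84842088 to 84846931), had the largest fall of the 33 genes. Its values were 643, 744 and 722 CPM in the NU7441 samples, against 940.1, 988 and 982 CPM in the DMSO samples. The groups were far apart, with NU7441 replicate 1 the lowest sample, and the mean was lower by 27.5% (log2 fold change -0.46 ± 0.04, 95% interval -0.55 to -0.37, adjusted p = 9.63e-07, edgeR). Without NU7441 replicate 1 it was -0.40. Canx, which encodes calnexin, the membrane-bound counterpart (mm10 chromosome 11, 50293957 to 50325673), had 604, 615 and 613 CPM in the NU7441 samples, against 694, 705 and 709 CPM in the DMSO samples. These groups were also apart, at -0.20 ± 0.02 (adjusted p = 2.21e-05, edgeR). Per kilobase, the RPKM of Calr was 2.35, 2.67 and 2.60 times that of Canx in the NU7441 samples, against 2.99, 3.09 and 3.06 in the DMSO samples. The ratio did not overlap between groups (exact permutation test, two-sided p = 0.1, the smallest possible here).

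**Figure D3:**
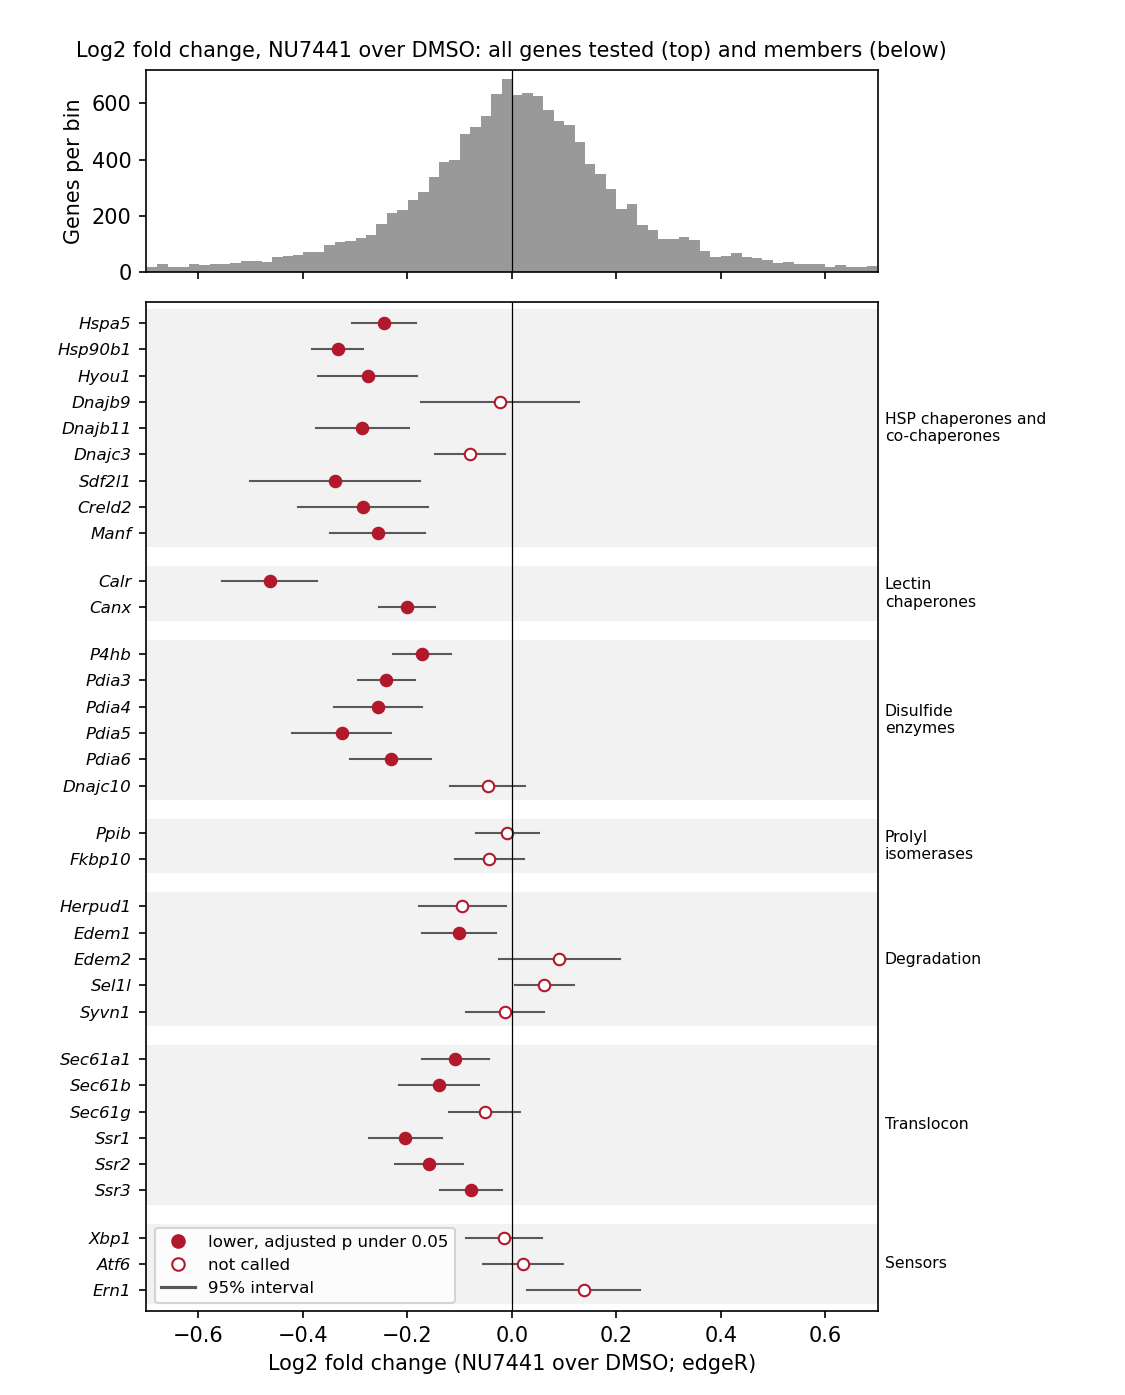
Log2 fold changes of NU7441 over DMSO from edgeR on the x axis, for the 33 genes by role (lower panel, lines are 95% intervals) and as a histogram of all tested genes (upper panel, genes per bin, with 538 genes beyond ±0.7 left off). Filled points passed an adjusted p of 0.05. All 20 filled points lie left of 0, and Calr lies furthest left.

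The protein disulfide isomerases fell, apart from the reductase Dnajc10. P4hb encodes the founding enzyme of the family, which is also the beta subunit of collagen prolyl 4-hydroxylase (mm10 chromosome 11, 120560304 to 120572936). It had the highest RPKM of the 33 genes in both groups, and its CPM values were 1160.5, 1216 and 1232 CPM in the NU7441 samples, against 1321, 1361 and 1383 CPM in the DMSO samples. The groups did not overlap, with a log2 fold change of -0.17 ± 0.03 (adjusted p = 0.000144, edgeR). Pdia3, or ERp57, the partner of calnexin and calreticulin (mm10 chromosome 2, 121413902 to 121438686), had 719.5, 753 and 737 CPM in the NU7441 samples, against 858, 876 and 877 CPM in the DMSO samples. It lay lower in all NU7441 samples, at -0.24 ± 0.03 (adjusted p = 4.67e-06, edgeR). The RPKM of Pdia3 relative to P4hb was 0.596, 0.595 and 0.575 in the NU7441 samples, against 0.624, 0.619 and 0.609 in the DMSO samples, again without overlap (exact permutation test, two-sided p = 0.1). With 3 such ratios compared, the adjusted p of each was also 0.1.

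The other isomerases had lower levels and similar falls. Pdia4, or ERp72, had 197, 218 and 213 CPM in the NU7441 samples, against 242, 249.6 and 258 CPM in the DMSO samples (log2 fold change -0.26 ± 0.04, adjusted p = 0.000162, edgeR). Pdia6, an isomerase found with BiP, had 302, 327 and 329 CPM in the NU7441 samples, against 366, 378 and 381 CPM in the DMSO samples (-0.23 ± 0.04, adjusted p = 0.0002, edgeR). Neither gene's groups overlapped. Pdia5 had the lowest RPKM of the 6 disulfide enzymes among the 33 genes, and its values were 21.9, 23.4 and 21.9 CPM in the NU7441 samples, against 27.3, 28.9 and 28.1 CPM in the DMSO samples. Its log2 fold change of -0.33 ± 0.04 (adjusted p = 5.08e-05, edgeR) was the lowest among the disulfide enzymes. Dnajc10, or ERdj5, a reductase that opens disulfides of chains bound for degradation, had 142, 145 and 139.6 CPM in the NU7441 samples, against 155, 144 and 142 CPM in the DMSO samples. Here the groups overlapped, and the 95% interval ran from -0.12 to 0.025 on the log2 scale (adjusted p = 0.333, edgeR).

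The prolyl isomerases, which help procollagen fold, were not called. Ppib, or cyclophilin B, had 125, 127 and 124 CPM in the NU7441 samples, against 127, 126 and 124 CPM in the DMSO samples, with overlapping groups and a 95% interval of -0.069 to 0.052 for the log2 fold change (adjusted p = 0.851, edgeR). Fkbp10, or FKBP65, had 326, 322 and 319.99 CPM in the NU7441 samples, against 324, 332 and 342 CPM in the DMSO samples, also overlapping (interval -0.11 to 0.023, adjusted p = 0.328, edgeR). The intervals leave out changes of the size found for Calr, which fell most. That of Fkbp10 holds falls of the size found for Edem1 (-0.10) and Ssr3 (-0.078), which were called. Ppib shares 1454 bases of its position with Snx22, which had a mean of 74 counts, and Fkbp10 shares 2520 bases with Nt5c3l, which had 1928.3.

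Among the genes of ER-associated degradation, Edem1 fell and the others were not called. Edem1, a mannosidase-like protein that marks misfolded glycoproteins (mm10 chromosome 6, 108828641 to 108859356), had 100.2, 105 and 103 CPM in the NU7441 samples, against 111, 107 and 113 CPM in the DMSO samples. The NU7441 samples were all below the DMSO samples by a small margin, at -0.10 ± 0.03 (adjusted p = 0.0316, edgeR). Edem1 missed the threshold without NU7441 replicate 1 (adjusted p = 0.0969), NU7441 replicate 3 (0.0722), DMSO replicate 1 (0.0884) or DMSO replicate 3 (0.139), and with upper-quartile scaling (0.101). Its relative Edem2 had 20.01, 19.1 and 19.1 CPM in the NU7441 samples, against 17.3, 19.3 and 18.1 CPM in the DMSO samples, with overlap (log2 fold change 0.091 ± 0.05, adjusted p = 0.233, edgeR).

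Sel1l is the adaptor and Syvn1, or HRD1, the ubiquitin ligase of the main degradation complex. Sel1l had 148, 152 and 149.98 CPM in the NU7441 samples, against 144, 143 and 144 CPM in the DMSO samples. It was the one gene of the 33 with every NU7441 sample above every DMSO sample, but its log2 fold change of 0.062 ± 0.03 did not pass (adjusted p = 0.0948, edgeR). With upper-quartile scaling it did (0.0202). Syvn1 had 66.7, 66.3 and 66.8 CPM in the NU7441 samples, against 68.1, 64.8 and 68.5 CPM in the DMSO samples, overlapping (interval -0.087 to 0.062, adjusted p = 0.829, edgeR), and shares 89 bases with Mrpl49. Herpud1, a membrane protein that recruits the complex, had 40.9, 38.8 and 38.5 CPM in the NU7441 samples, against 43.2, 40.5 and 42.4 CPM in the DMSO samples. Its log2 fold change was -0.095 ± 0.04 (adjusted p = 0.0787, edgeR), and the test was passed without NU7441 replicate 1 (0.0316) or DMSO replicate 2 (0.0447). Leaving out DMSO replicate 2 gave 2 lower degradation genes, and there were 0 without NU7441 replicate 3, DMSO replicate 1 or DMSO replicate 3.

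Of the translocon genes 5 of 6 fell, with a median log2 fold change of -0.12 over the 6. Sec61a1 encodes the pore of the channel (mm10 chromosome 6, 88503607 to 88518800) and had 275, 284 and 279 CPM in the NU7441 samples, against 295, 302 and 306 CPM in the DMSO samples. The groups did not overlap, at -0.11 ± 0.03 (adjusted p = 0.013, edgeR). This call was lost without NU7441 replicate 3 (adjusted p = 0.052), DMSO replicate 2 (0.0582) or DMSO replicate 3 (0.0633). The small subunit Sec61b had 70.5, 70.9 and 74.1 CPM in the NU7441 samples, against 77.5, 81.7 and 78.1 CPM in the DMSO samples (-0.14 ± 0.04, adjusted p = 0.00815, edgeR, and 0.0503 without DMSO replicate 2). Sec61g, the other small subunit, had 82.8, 83.8 and 83.7 CPM in the NU7441 samples, against 86.9, 87.3 and 85.4 CPM in the DMSO samples. Its groups were apart by a small margin, and the test was not passed (-0.052 ± 0.03, adjusted p = 0.237, edgeR). Transcripts of Gm10320 and Gm10177, which are not rows of the table, match Sec61b at 98.3% and Sec61g at 100% over at least 300 bases, so the values of these small subunits are uncertain. An antisense gene, Gm44170, covers 392 bases of the Sec61a1 transcript. Among the chaperones, a pseudogene of Calr matches it at 92.5% over 495 bases, and Gm6568, with a mean of 3.7 counts, matches Dnajb9 at 93.3% over 697 bases.

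The TRAP complex sits beside the channel and helps some signal peptides to insert. Ssr1, its alpha subunit (mm10 chromosome 13, 37971401 to 37994190), had 199, 207 and 209.9 CPM in the NU7441 samples, against 230.00, 243 and 236 CPM in the DMSO samples. It had the largest fall of the translocon genes, without overlap, at -0.20 ± 0.03 (adjusted p = 0.000243, edgeR). Ssr2, the beta subunit, had 116, 119 and 122 CPM in the NU7441 samples, against 131, 131 and 136 CPM in the DMSO samples (-0.16 ± 0.03, adjusted p = 0.00101, edgeR). Ssr3, the gamma subunit, had 424, 414 and 418 CPM in the NU7441 samples, against 446, 445 and 435 CPM in the DMSO samples. Ssr3 only just passed, at -0.078 ± 0.03 (adjusted p = 0.0464, edgeR). It missed the threshold without NU7441 replicate 2 (0.155), NU7441 replicate 3 (0.122), DMSO replicate 1 (0.107), DMSO replicate 2 (0.123) or DMSO replicate 3 (0.0528). It also missed with upper-quartile scaling (0.167) and without the filter on low counts (0.0572). The number of translocon genes lower was 3 without NU7441 replicate 3, 2 without DMSO replicate 2 and 3 without DMSO replicate 3.

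The sensors were not called. Xbp1 encodes the transcription factor that IRE1 activates by splicing its mRNA (mm10 chromosome 11, 5520967 to 5525872), and its gene count does not separate the spliced form. It had 84.7, 88.6 and 89.6 CPM in the NU7441 samples, against 89.3, 87.05 and 89.2 CPM in the DMSO samples, with overlapping groups and a 95% interval of -0.088 to 0.058 (adjusted p = 0.786, edgeR). Atf6, the membrane-bound factor released by cleavage, had 67.4, 69.9 and 72.2 CPM in the NU7441 samples, against 69.1, 67.6 and 69.7 CPM in the DMSO samples, which overlapped as well (interval -0.056 to 0.10, adjusted p = 0.71, edgeR). Ern1 encodes the sensor IRE1 (mm10 chromosome 11, 106397620 to 106487796) and had 26.8, 29.1 and 29.3 CPM in the NU7441 samples, against 24.04, 27.01 and 26.5 CPM in the DMSO samples. Its NU7441 values were above the DMSO values, except that NU7441 replicate 1 lay just under DMSO replicate 2, with a log2 fold change of 0.14 ± 0.05 (adjusted p = 0.0532, edgeR). It passed as higher without NU7441 replicate 1 (0.0198) or DMSO replicate 2 (0.0477), with a robust fit (0.0419) and with upper-quartile scaling (0.0248).

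Levels differed far more between the genes than between the groups. On the per-length scale (deposited RPKM, which corrects for gene length and depth), P4hb averaged 351 ± 6.04 RPKM in NU7441 and 404 ± 10.5 RPKM in DMSO (SD, n = 3 each). At the other end Dnajb9 averaged 3.61 ± 0.0235 RPKM in NU7441 and 3.74 ± 0.0620 RPKM in DMSO. The range spanned 97.3-fold in NU7441 and 108-fold in DMSO. The next genes were Calr at 268 RPKM in NU7441 and 378 RPKM in DMSO, Hsp90b1 at 259 RPKM in NU7441 and 334 RPKM in DMSO, and Pdia3 at 207 RPKM in NU7441 and 249 RPKM in DMSO. These 5 most abundant genes, with Hspa5 as the fifth, held the same ranks in both groups. In the order set by the DMSO means, 12 of the 32 neighbouring pairs overlapped in NU7441 and 11 in DMSO, among them Ssr2 with Sec61g, Manf with Ssr1 and Edem1 with Syvn1 in both groups. Calr and Hsp90b1 overlapped in NU7441 but not in DMSO. Of the sensors and transcription factors, Xbp1 stood in the middle of the order, at rank 16 in both groups, at 36.1 RPKM in NU7441 and 37.2 RPKM in DMSO. Atf6 stood near the low end, at 6.93 RPKM in NU7441 and 6.98 RPKM in DMSO, as did Ern1, at 5.29 RPKM in NU7441 and 4.92 RPKM in DMSO. Across the 33 genes the log2 fold change had a Spearman rho of -0.30 with the level, as a description over genes that share the same 6 libraries.

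Other genes of the same compartment were taken from 10 lists by role. Of 122 listed genes 114 were tested, and 29 were lower and 9 higher, with a median log2 fold change of -0.025. Over all tested genes 16.6% were lower and 14.1% higher, and small counts such as 1 of 8 or 1 of 5 lie near these shares. The share lower was not tested against that of the 33, and the lists too were chosen with earlier results of these data known. The oligosaccharyltransferase, which attaches glycans as chains enter the ER, had 6 of 11 tested genes lower and 1 higher (median -0.093). Its subunit Rpn1 averaged 199 ± 7.15 CPM in NU7441 and 233 ± 8.53 CPM in DMSO (log2 fold change -0.23 ± 0.04, adjusted p = 0.000201, edgeR), and Rpn2 (-0.16 ± 0.03) and Magt1 (-0.17 ± 0.03) also fell. Without DMSO replicate 2 the number lower was 3. Of 8 genes of the signal recognition particle and its receptor 1 fell, the receptor subunit Srprb (-0.19 ± 0.04), and of 5 signal peptidase genes 1 fell, Spcs3 (-0.19 ± 0.04), or 2 with library size only or the robust fit. Among 11 other translocon and membrane insertion genes Tmem85 (-0.16 ± 0.04) and Cox4nb (-0.14 ± 0.04), subunits of the ER membrane complex, fell. Neither passed without NU7441 replicate 2 (adjusted p = 0.0616 and 0.0682), and Cox4nb also missed without DMSO replicate 3 (0.0714).

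As given above, 16.6% of all tested genes were lower and 14.1% higher. Of 14 other disulfide enzymes 4 fell and 0 rose, among them Erp29 (-0.15 ± 0.04) and the membrane-bound thioredoxins Tmx1 (-0.23 ± 0.04) and Tmx2 (-0.14 ± 0.03). The number higher in this list was 1 with RLE scaling, no filter, halved counts, the robust fit, DESeq2 or without NU7441 replicate 1, and 2 with upper-quartile scaling. The enzymes of glycan trimming had 4 of 10 lower. Mogs, the glucosidase that makes the first cut, averaged 46.9 ± 1.28 CPM in NU7441 and 55.3 ± 2.01 CPM in DMSO (-0.24 ± 0.04, adjusted p = 0.000235, edgeR). Ganab (-0.094 ± 0.03) and Prkcsh (-0.088 ± 0.03), the subunits of glucosidase II, passed as well, but with 1 library left out in turn the number lower in this list was 1 or 2, and with upper-quartile scaling it was 1. In the list of other prolyl isomerases and collagen chaperones 5 of 11 fell. Fkbp2 averaged 19.9 ± 1.01 CPM in NU7441 and 26.7 ± 0.821 CPM in DMSO (-0.42 ± 0.05, adjusted p = 1.14e-05, edgeR), the largest fall of the 10 lists. Serpinh1, or HSP47, the chaperone of procollagen, averaged 1120.01 ± 22.3 CPM in NU7441 and 1263 ± 44.4 CPM in DMSO (-0.17 ± 0.03, adjusted p = 0.000174, edgeR), and P4ha2, a catalytic subunit that pairs with P4hb, fell by 0.15.

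In the list of other HSP70 partners 2 of 9 genes rose, and among other degradation genes 2 of 21, beside 14.1% higher over all tested genes. Neither share was tested against it. Sdf2, the close relative of Sdf2l1, had 76.9, 76.9 and 75.5 CPM in the NU7441 samples, against 62.2, 65.1 and 63.7 CPM in the DMSO samples. Its NU7441 samples were all above the DMSO samples, at 0.26 ± 0.03 on the log2 scale (adjusted p = 2.78e-05, edgeR), whereas Sdf2l1 fell. Sil1, a nucleotide exchange factor of BiP, averaged 32.02 ± 0.766 CPM in NU7441 and 29.004 ± 0.924 CPM in DMSO (0.14 ± 0.04, adjusted p = 0.0138, edgeR). The call of Sil1 was lost without NU7441 replicate 2 (0.0627), NU7441 replicate 3 (0.0535) or DMSO replicate 1 (0.0578). Hspa13 fell (-0.15 ± 0.03), so that this list of 9 had 2 higher and 1 lower, and 2 lower without NU7441 replicate 3 or with library size only. Os9, the lectin that delivers glycoproteins to the Sel1l complex, averaged 171 ± 2.88 CPM in NU7441 and 146 ± 5.65 CPM in DMSO (0.23 ± 0.03, adjusted p = 6.81e-05, edgeR). Erlin1 (-0.21 ± 0.04) and Nploc4 (-0.14 ± 0.03), a cofactor of the segregase VCP, fell, and of the 21 degradation genes in that list 4 were lower and 2 higher. Without NU7441 replicate 3 or DMSO replicate 3, or with upper-quartile scaling, the number lower was 2.

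Among 14 other stress sensors and effectors 4 rose and 1 fell (median 0.055), beside 14.1% higher and 16.6% lower over all tested genes. Ppp1r15a, or GADD34, the stress-induced subunit that directs dephosphorylation of eIF2α, averaged 14.4 ± 0.732 CPM in NU7441 and 12.3 ± 0.580 CPM in DMSO (0.23 ± 0.06, adjusted p = 0.0131, edgeR). It missed the threshold without NU7441 replicate 2 (0.0791) or DMSO replicate 2 (0.0675). Its constitutive relative Ppp1r15b averaged 155 ± 5.05 CPM in NU7441 and 175 ± 1.55 CPM in DMSO, a fall (-0.18 ± 0.03, adjusted p = 0.000439, edgeR). Creb3, a membrane-bound factor related to Atf6, passed as higher (0.12 ± 0.04), and was lost without NU7441 replicate 1 (0.0669), NU7441 replicate 3 (0.106), DMSO replicate 1 (0.0796) or DMSO replicate 2 (0.0726), and with library size only (0.0742). The number of genes higher in this list was 0 without DMSO replicate 2, 2 without NU7441 replicate 1, NU7441 replicate 2, NU7441 replicate 3 or DMSO replicate 1, and 1 with library size only. The number lower was 3 without NU7441 replicate 1 or DMSO replicate 2, 2 with library size only, halved counts or DESeq2, and 4 without the filter on low counts.

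**Figure D4:**
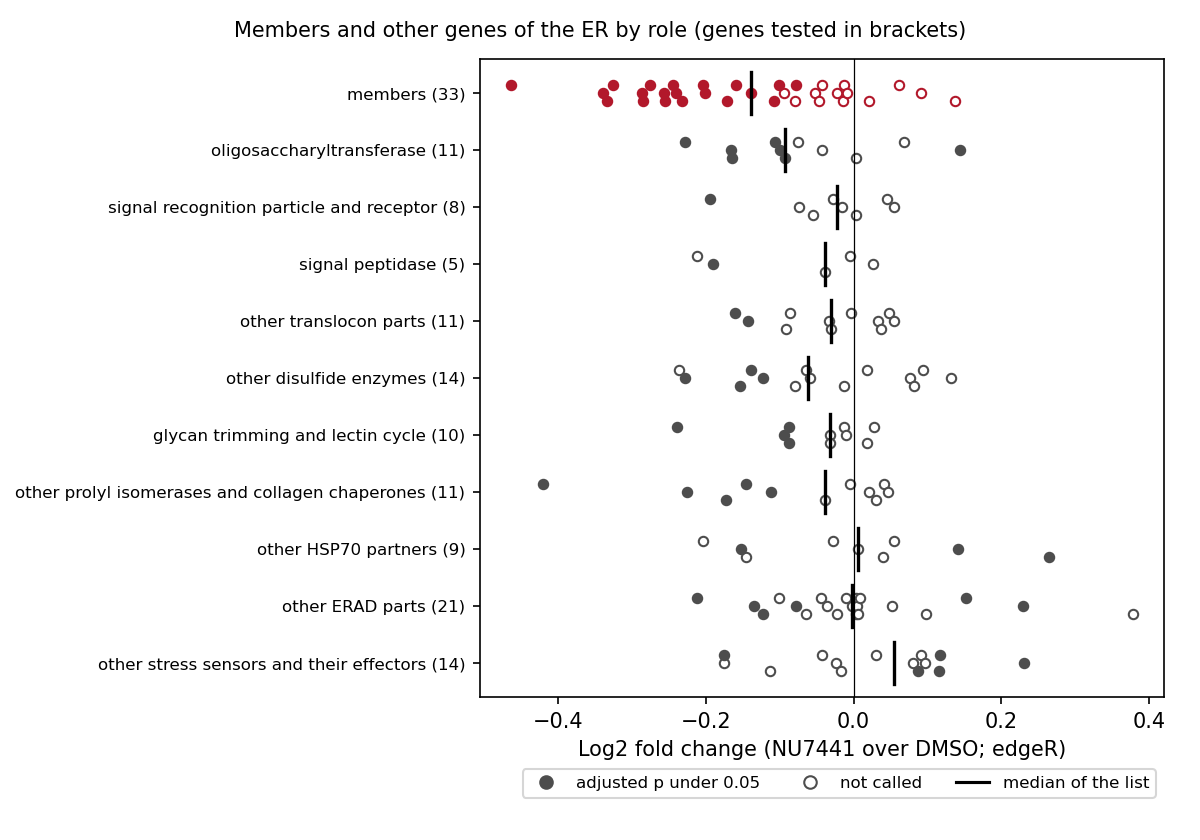
Log2 fold changes of NU7441 over DMSO (edgeR) on the x axis for the 33 genes (red, top row) and the 10 other lists of ER genes (grey), with the number of genes tested in brackets. Filled points passed an adjusted p of 0.05 and black ticks are medians. The median of the 33 lies furthest left, at -0.14, and that of the other stress sensors furthest right, at 0.055.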

How the data were processed

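Per the file headers, the deposited table has raw counts beside RPKM values for every sample, with the length of each of its 23358 genes. Per the submitters' processing notes, bcl2fastq, TopHat2 version 2.0.6, HTSeq and the build mm10 were used. Settings and the use of strand in counting are not given in the sources used here. Overlapping and antisense genes may therefore share reads. The deposited counts hold 0 odd values, so each read pair may have been counted as 2. The deposited RPKM values were used only to compare levels between genes.

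After filterByExpr (minimum count 10, minimum total 15) and TMM scaling, NU7441 was compared with DMSO by the two-sided quasi-likelihood test of edgeR 4.0.16 (R 4.3.3), in a model of the groups alone. P-values were adjusted by Benjamini-Hochberg over all 13784 genes tested. The SE is the log2 fold change divided by the square root of F, and 95% intervals use the t quantile of the fitted degrees of freedom. CPM uses the scaled library sizes. The procedure was tested on simulated counts, but no setting or result of that test is given here. No pair of samples within a group matched to within counting noise. Near-identical transcripts (at least 90% over 300 bases) were sought in GENCODE M21. The 33 genes, the lists and the promoter search were chosen with earlier results of these data known. Of each list, up to 3 called genes with the lowest adjusted p are named. Alternatives were other scalings, DESeq2 1.42.0, no filter, halved counts, a robust fit, a replicate block and leaving out each sample.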

Additional observations from a re-analysis of the deposited data

How the results depend on the processing

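Of 462 values, 14 alternatives for each of the 33 genes, 434 kept their side of the threshold, 16 lost the call, 12 gained one and 0 called values reversed, and 25 of the 33 genes kept their side under every alternative run. Of the values of genes that were not called, 7 changed sign, in 5 genes (Dnajb9, Ppib, Syvn1, Xbp1 and Atf6). The number lower, 20 in the main analysis, was 18 with upper-quartile scaling, 21 with library size only, 19 without a filter, and 20 with RLE scaling, halved counts, the robust fit or DESeq2. It was between 17 and 20 with each sample left out. The number higher, 0 in the main analysis, was 2 with upper-quartile scaling (Sel1l, Ern1), 1 with the robust fit (Ern1) and between 0 and 1 with each sample left out. The labels do not say whether the replicate numbers pair the samples. Deviations of same-numbered samples correlated at 0.251, 0.18 and 0.0433, and each NU7441 sample correlated best with the DMSO sample of its number. DMSO replicate 3, however, correlated best with NU7441 replicate 2 (0.0995), so these values do not settle the pairing. With the number as a replicate block 22 of the 33 were lower and 2 higher (Dnajc3 and Herpud1 passed as lower at adjusted p = 0.0249 and 0.0284, Sel1l and Ern1 as higher at 0.0383 and 0.00776, edgeR), and 5120 genes were called against 4231. Library depth (438 counts at least) did not keep any of the 33 from being tested, but the interval of Dnajb9 spans -0.17 to 0.13 on the log2 scale.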

Other observations

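The element of Creld2 lies at mm10 chromosome 15, 88819520 to 88819538, and the same bases fall in the promoter window of Alg12, a mannosyltransferase of the ER that is read in the opposite direction. Alg12 was named after its value was seen. Creld2 fell (-0.29 ± 0.06), whereas Alg12 stood at 0.068 ± 0.07 on the log2 scale (adjusted p = 0.488, edgeR). The difference between the genes was not tested. The other genes with a full element outside the 33 were also looked at after the fact. Hnrnpa3, an RNA-binding protein, fell (-0.33 ± 0.03, edgeR, adjusted p = 1.44e-06), and Zfp57 passed as higher (0.16 ± 0.06, edgeR, adjusted p = 0.0417). Derl3, a degradation factor, stood at 0.38 ± 0.32 (edgeR, adjusted p = 0.42) and was not called. Acacb (0.078 ± 0.21), Adcy3 (-0.033 ± 0.04) and Pan2 (-0.0105 ± 0.04) were not called either.

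NU7441 replicate 1 was the lowest of its group for 25 of the 33 genes, and DMSO replicate 1 the lowest of its group for 21. Without NU7441 replicate 1 the number lower was 20, and without DMSO replicate 1 it was 18.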
